A study of Mus musculus with 4 samples.

Results

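Bulk RNA sequencing libraries labelled as mouse tumours were compared by the number in their sample descriptions. The 2 libraries numbered 1 and 2, both labelled shppp2r1a, were set against the 2 libraries numbered 3, of which 1 is labelled shppp2r1a and the other scr, so that all 4 libraries of the series were used. The pairing was chosen from expression values of these same libraries, so the differences below are a description and no test was made of them. It mixes hairpin and an unknown batch: scr stands in only 1 of the pairs, and the labels do not say what the number marks. In the contrast of the pairs the shares of genotype and number cannot be told apart, and no cause can be assigned to any difference between the pairs. According to the labels, the tumours grew from CT26, a colon carcinoma line of BALB/c mice, and were collected near 70 mm3. Cells of the 3 shppp2r1a libraries carried a short hairpin RNA against Ppp2r1a, which encodes the scaffold subunit of the phosphatase PP2A, and those of the scr library a scrambled hairpin. The study's methods describe injection under the skin of the flank. More than 1 hairpin against Ppp2r1a was used in the study, and the labels say neither which one these tumours carried nor whether the libraries came from separate mice.

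The intestine is patterned along its length. Enterocytes of the duodenum and jejunum absorb sugars, amino acids and fat under factors such as Gata4 and Pdx1, the ileum takes back bile acids, and the large bowel, where the 5′ Hox genes are expressed, recovers salt and water and makes mucus. Neutrophils, macrophages, lymphocytes and fibroblasts lie beneath the epithelium, and inflamed epithelium makes chemokines and antimicrobial proteins. In bulk RNA, fewer cells of a type and less RNA per cell cannot be told apart.

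Total expected counts (estimated counts per gene, not always whole) ran from 24726440 to 28950004 per library, and between 16770 and 17343 genes had a count above 0. Transcripts of differentiated bowel epithelium were abundant in all 4 libraries. Epcam, an adhesion protein of epithelia, stood between 1651 and 1947 TPM (a share of the library's transcripts, corrected for gene length), and Krt20, a keratin of mature bowel epithelium, between 2295 and 4635 TPM. Krt5, a keratin of skin basal cells, reached at most 0.8 TPM. Genes of small bowel enterocytes summed to 35449, 88160, 150530 and 145930 TPM in knockdown 1, knockdown 2, knockdown 3 and scr. Those of Paneth cells summed to 13158, 39198, 15063 and 15408 TPM. These are markers of mature bowel cells, so the name tumour rests on the labels and not on these values. How much of the RNA came from CT26 cells was not determined, and why bowel genes were so abundant was not tested. Ppp2r1a itself did not follow the pairing, with 40.2, 29.8, 22.3 and 75.1 TPM in knockdown 1, knockdown 2, knockdown 3 and scr, the order in which values are given throughout. All 3 knockdown libraries lay below scr, and the pairs overlapped.

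Of 24444 genes, 14363 had enough counts to be kept. On log2 CPM, which is counts scaled to the library total by trimmed means and taken to the log2 with a prior count of 2, knockdown 3 and scr were the most alike, with a Pearson r of 0.97 over genes and 1206 genes at least 2-fold apart. Knockdown 1 and 2 followed with an r of 0.97 and 1757 genes apart. Knockdown 2 and 3 were close behind, with an r of 0.95 and 2094 genes, and by the median absolute log2 difference knockdown 2 was nearer to knockdown 3 (0.365) than to knockdown 1 (0.375). By all of these measures knockdown 1 and scr were farthest apart, with an r of 0.86 and 5593 genes. Genes are not replicates, and these values describe the libraries alone. On the first principal component, which held 81.3% of the variance, the libraries lay at 96.2, 39.7, -53.1 and -82.8. The pairs therefore formed the ends of a graded order in which knockdown 2 was nearer to the middle than knockdown 1.

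**Figure D1:**
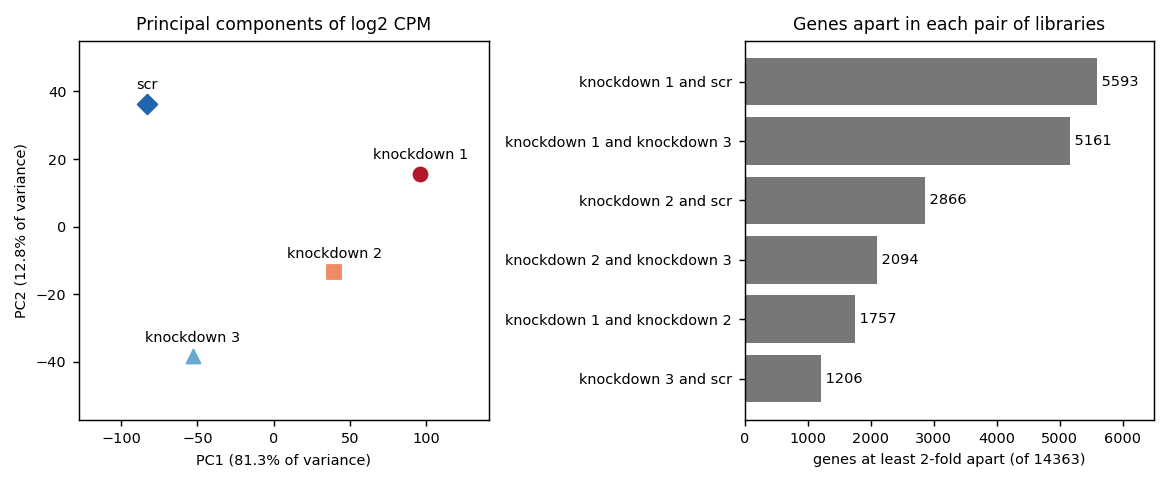
Left, position of each of the 4 libraries on the first and the second principal component of log2 CPM (arbitrary units, share of variance on the axes). Right, number of the 14363 kept genes at least 2-fold apart in each pair of libraries, with bars from 0. Knockdown 1 and 2 lie on the positive side of the first component and knockdown 3 and scr on the negative side, and the counts run from 1206 to 5593.

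A gene was said to separate the pairs when every library of one pair lay at least 2-fold above every library of the other, a gap of at least 1 on the log2 scale. By this rule 1099 genes (7.65% of those kept) were higher in knockdown 1 and 2 and 335 (2.33%) were lower, so 76.6% of the separating genes were higher. This split depends on scaling, and with library size alone 90.5% of them were higher. Without any minimum gap, 5560 genes (38.7%) lay wholly above and 4928 (34.3%) wholly below in knockdown 1 and 2, and 3875 overlapped. These shares follow from the choice of pairs and nothing is read from them. Just inside the 2-fold limit stood Fmnl1 with a gap of 1.0002 and Slc39a14 with 1.0038, and just outside it Ptpn13 with 0.9993 and Synpo with 0.9969. With knockdown 1 and 2 set against knockdown 3 alone, which compares libraries of 1 label, 1477 genes (10.3%) were higher and 464 (3.23%) lower. These hold all of the former genes by construction. The median difference of all kept genes was 0.04 on the log2 scale. It became 0.48 with library size alone, 0.24 with upper-quartile factors, 0.31 on log2(TPM + 1) and 0.31 on log2(FPKM + 1), so TPM values set knockdown 1 and 2 higher relative to knockdown 3 and scr than the log2 CPM differences do.

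The libraries of a pair also differed from each other. Of the 1099 higher genes, 643 (58.5%) fell from knockdown 1 through knockdown 2 and knockdown 3 to scr, beside 56.2% of the 5560 genes wholly above. In these genes the call fixes the step between the pairs but not the order within each pair. Over all kept genes 21.8% fell and 18.5% rose in that order. Of the 335 lower genes 223 (66.6%) rose from knockdown 1 to scr, beside 54.0% of the 4928 wholly below. Knockdown 1 was above knockdown 2 in 985 of the 1099 higher genes and in 7398 of the 14363 kept, and knockdown 3 was above scr in 721 and in 7389. Both libraries of a pair could lie on one side and still differ widely: knockdown 1 and 2 were at least 2-fold apart in 313 higher and 158 lower genes, and knockdown 3 and scr in 239 and 73.

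**Figure D2:**
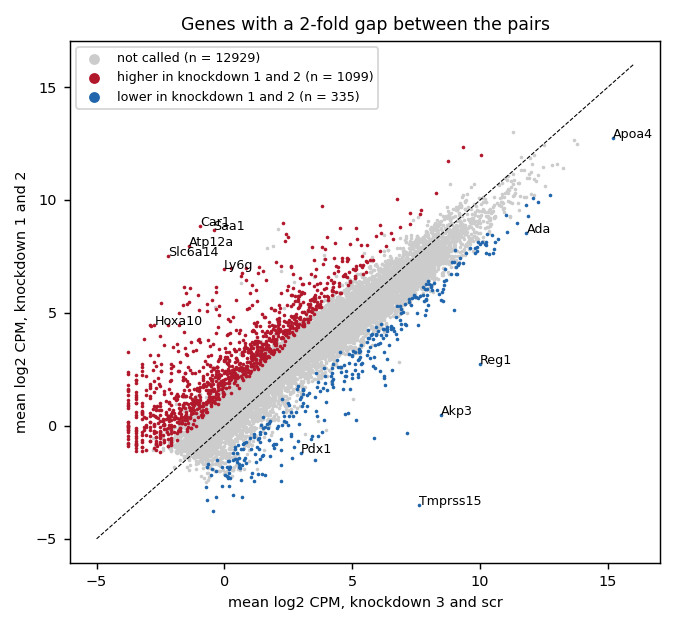
Mean log2 CPM of each of 14363 kept genes in knockdown 1 and 2 (vertical) against knockdown 3 and scr (horizontal). Red points are the 1099 genes at least 2-fold higher in both libraries of knockdown 1 and 2 than in both others, blue points the 335 lower, grey points the rest, and the dashed line marks equality. Tmprss15, Akp3 and Reg1 stand far below the line, and Car1, Saa1, Atp12a and Slc6a14 far above it.

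Gene lists for bowel segments, cell types, immune cells, stroma and metabolism were drawn up with earlier results of these data known, and were described by counts and medians beside those of all kept genes. Lists of neutrophil, large bowel, inflamed epithelium, plasma cell, interferon-gamma and collagen genes had medians above that of all genes, and lists of enterocyte, sugar, lipid and xenobiotic metabolism had medians below it. Leaving out a library can only widen a gap, and the counts of lists moved most without knockdown 2, by over 1.5-fold or away from 0 in 59 of 107 counts, beside 43 without knockdown 3, 20 without scr and 7 without knockdown 1. A gene could pass the count minimum through 1 pair alone, so the counts of separating genes include some that had to differ. Of all 14363 kept genes 7.65% were higher, 2.33% lower, 38.7% wholly above and 34.3% wholly below. List counts below are to be read beside these shares. The counts of all kept genes were 2469 higher and 1809 lower without knockdown 2, and 1849 and 781 without knockdown 3. They were 1477 and 464 without scr, and 1146 and 375 without knockdown 1. Against knockdown 3 alone, the median log2 difference was 3.84 for large bowel and -1.65 for enterocyte genes, beside 0.04 for all kept genes.

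**Figure D3:**
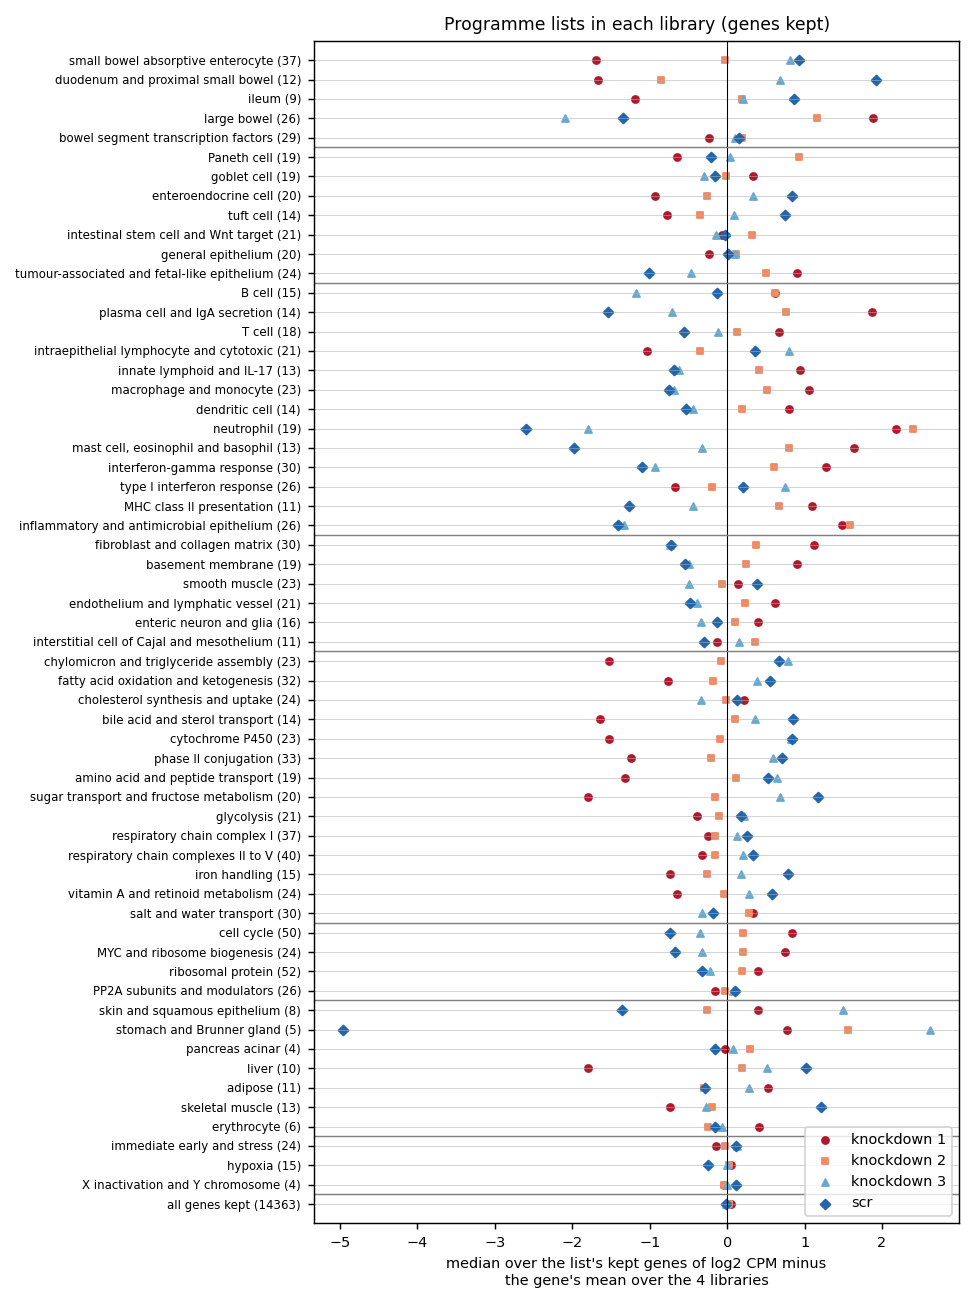
For each gene list (number of kept genes in brackets), the median over its genes of log2 CPM minus the gene's mean over the 4 libraries, in log2 units, with 1 symbol per library. Knockdown 1 and 2 lie to the right of the others for neutrophil, large bowel, collagen and plasma cell lists and to the left for the small bowel enterocyte and sugar transport lists, and the bottom line, all kept genes, lies close to 0 in every library.

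Large bowel genes stood out on the higher side. Of 26 kept genes of the large bowel list, 19 were higher in both knockdown 1 and 2 and none was lower, with a median log2 difference of 3.28, which ranged from 2.36 to 3.84 over the settings tried. Their summed level was 15487, 7934, 2733 and 1486 TPM. Car1, a carbonic anhydrase of colonocytes, stood at 1439, 418, 4.76 and 0 TPM, so that the lowest library of the higher pair was far above both others, with a log2 difference of 9.78 ± 2.92 (SE from the spread within pairs, n = 2 per pair, as for all differences below). Atp12a, the proton and potassium pump of the distal colon, stood at 133, 108, 0.47 and 0.01 TPM, a difference of 9.33 ± 1.76. Slc6a14, an amino acid transporter, stood at 183, 58.0, 0.25 and 0 TPM, a difference of 9.72 ± 1.72. For genes near 0 in 1 pair the size of such differences depends on the prior count. Some genes of the list, such as Scnn1b and Insl5, passed the count minimum through knockdown 1 and 2 alone and had to lie above.

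Transport genes of the distal bowel lay on the same side. Aqp4, a water channel, was at 239, 61.5, 1.83 and 1.32 TPM, with a log2 difference of 5.89 ± 0.87. All 3 subunit genes of the epithelial sodium channel separated the pairs, among them Scnn1a at 37.9, 24.7, 5.57 and 4.26 TPM and Scnn1b at 2.8, 1.17, 0 and 0 TPM. Scnn1b had no count in knockdown 3 and scr and was at least 21.7-fold higher in the other pair, against a floor of 3 counts per library. Hsd11b2, which protects the mineralocorticoid receptor from glucocorticoids, was at 81.9, 29.9, 2.76 and 1.31 TPM. Best2, an anion channel of colonic goblet cells, was at 5.47, 2.9, 0.03 and 0 TPM, and its ratio to the single count in the lower pair was 206 (95% counting interval from 36.6 to 8154). Scnn1b and Best2 passed the count minimum through knockdown 1 and 2 alone and had to lie above. In the wider list of salt and water transport, 12 of 30 kept genes were higher and 2 lower, and the median was 0.56. Atp12a, Car1 and Aqp4 are among the 12 and are also counted in the large bowel list. The lower ones were Slc26a6, an anion exchanger, at 55.8, 151, 259 and 323 TPM, and Aqp7, a water and glycerol channel, at 7.63, 16.1, 33.8 and 33.0 TPM.

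Not every large bowel gene followed. Slc26a3, the chloride and bicarbonate exchanger of surface colonocytes, was at 155, 113, 75.4 and 95.6 TPM, and on log2 CPM the pairs overlapped. Car4, a membrane carbonic anhydrase, was at 256, 238, 69.6 and 120.5 TPM, with a gap of 0.54 that fell short of 2-fold. Retnlb, a goblet cell antimicrobial protein, was at 1623, 79.4, 0.99 and 105 TPM and scr exceeded knockdown 2. Mptx1 was at 56.8, 144, 78.0 and 82.6 TPM with no order by pair.

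Transcription factors that mark position fell on both sides. Several Hox genes that are switched on toward the hind end of the gut were higher in knockdown 1 and 2. Hoxa10 was at 35.2, 11.3, 0.09 and 0.03 TPM, a log2 difference of 7.23 ± 0.79. Hoxa9 was at 16.5, 4.65, 0.02 and 0.02 TPM, and its ratio to the 2 counts of the lower pair was 406 (95% counting interval from 112 to 3355). Hoxa11 was at 8.41, 2.0, 0 and 0 TPM, at least 47.1-fold higher. Hoxa13 was at 12.8, 5.03, 0.1 and 0 TPM, a ratio of 140 (interval from 38.4 to 1158). These 4 neighbours of the Hoxa cluster were almost without counts in both knockdown 3 and scr, and knockdown 1 was well above knockdown 2 for each. Their log2 differences were among the largest of the list.

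Some other hindgut factors were also higher in knockdown 1 and 2. Hoxb13, a factor of the distal colon, was at 35.05, 36.2, 1.57 and 4.04 TPM, a log2 difference of 3.39 ± 0.70 with knockdown 1 and 2 close together. Hoxb9 was at 12.3, 3.19, 0.34 and 0.33 TPM. Foxd2, a forkhead factor, was at 10.5, 2.53, 0.02 and 0.07 TPM. In contrast Hoxb6 and Hoxb7, at 0.99, 1.24, 1.02 and 1.03 TPM and at 2.29, 2.24, 1.12 and 1.9 TPM, overlapped on log2 CPM.

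Some factors of the foregut and proximal small bowel were lower. Pdx1, required for duodenum and pancreas, was at 0.54, 0.59, 4.9 and 18.2 TPM, a log2 difference of -4.21 ± 0.98. Onecut2 was at 0.54, 1.06, 6.01 and 8.71 TPM, a difference of -3.63 ± 0.67. Gata4, the factor that sets jejunum apart from ileum, was at 15.6, 43.7, 61.4 and 71.2 TPM, and its gap of 0.72 fell short of 2-fold because knockdown 2 was near knockdown 3. Factors of the whole intestine did not separate the pairs. Cdx2 was at 113, 95.4, 78.5 and 80.5 TPM, with a log2 difference of 0.00 ± 0.04, and Hnf4a was at 271, 362, 376 and 338 TPM. Over the segment factor list 8 of 29 kept genes were higher and 3 lower (9 lower without knockdown 2), and the median was -0.16, running from -0.51 to 0.28 across settings. Hoxa9, Hoxa11 and Hoxa13 passed the count minimum through knockdown 1 and 2 alone and had to lie above. The count of higher genes is thus partly set by the filter.

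**Figure D4:**
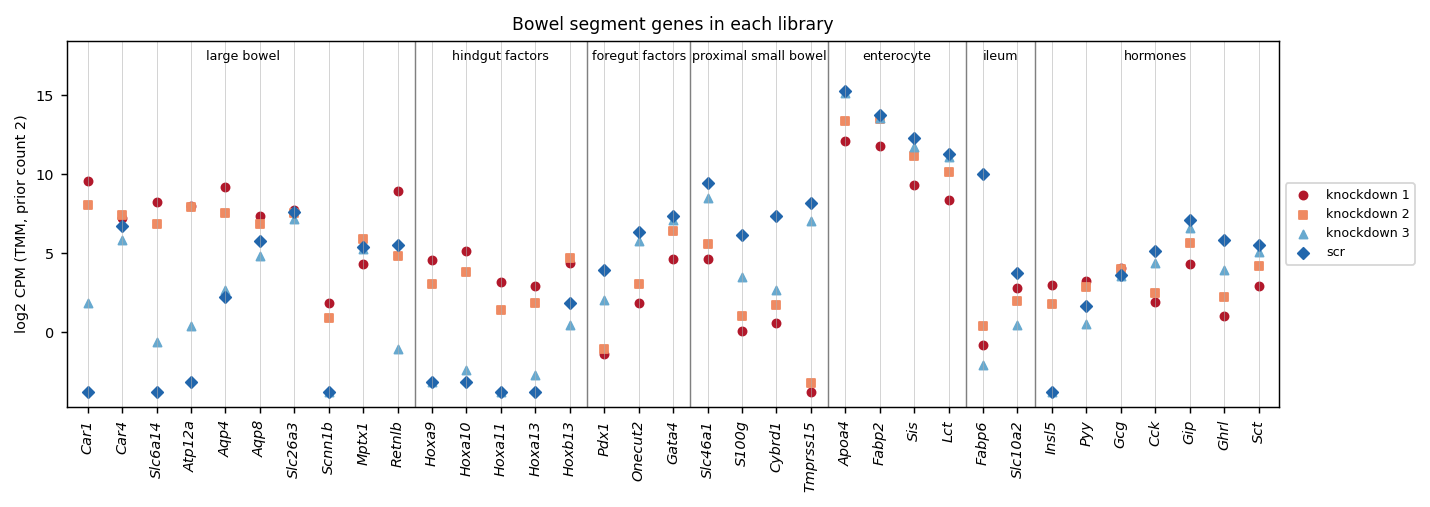
Log2 CPM (trimmed-mean scaling, prior count 2) of bowel segment genes in each of the 4 libraries, 1 symbol per library and no averaging. Knockdown 1 and 2 lie above knockdown 3 and scr for Car1, Slc6a14, Aqp4, Hoxa9, Hoxa10 and Insl5, and below for Pdx1, Slc46a1, Tmprss15 and Apoa4, while Fabp6 is high in scr alone.

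Genes of the duodenum and upper small bowel held the widest gap on the lower side. Tmprss15, the enteropeptidase that activates trypsinogen in the duodenum, was at 0, 0.01, 47.5 and 98.2 TPM. After scaling to library size, its counts in knockdown 3 and scr were 12730 times those of the other pair, which held a single count (95% counting interval from 2284 to 502800). Slc46a1, the proximal folate transporter, was at 26.9, 44.4, 284 and 528 TPM, a log2 difference of -3.87 ± 0.68. S100g, the calcium-binding protein of vitamin D-driven uptake, was at 5.09, 8.66, 41.6 and 254 TPM, a difference of -4.26 ± 1.42. Of 12 kept genes of the duodenum and proximal small bowel list, which does not hold Tmprss15, 5 were lower and none higher, and the median was -2.22. Cck and Ghrl are among the 5 and are also counted in the enteroendocrine list. Without scr 5 were lower and 2 higher and the median was -1.62, and without knockdown 2 or 3 there were 9 or 10 lower. Trpv6, a calcium channel also driven by vitamin D, lay the other way at 0.52, 1.51, 0 and 0.24 TPM, a log2 difference of 2.82 ± 1.70 with a gap of 0.50.

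Alkaline phosphatase and regenerating protein genes were also far lower, with a wide spread between knockdown 3 and scr. Akp3, a duodenal alkaline phosphatase, was at 0.93, 2.51, 77.7 and 1321 TPM, a log2 difference of -8.01 ± 2.22. Reg1, a secreted lectin of the upper bowel, was at 14.1, 23.9, 606 and 7437 TPM, a difference of -7.22 ± 1.90. Cybrd1, the duodenal iron reductase, was at 0.58, 1.11, 1.79 and 45.5 TPM, and knockdown 3 was close to knockdown 2.

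Of 9 kept ileum genes none reached the 2-fold gap in either direction, which for so few genes is near the share of all genes, and the median was -0.69. Without scr 2 were higher, and without knockdown 2 there were 5 lower. Fabp6, the bile acid carrier of ileal enterocytes, was at 2.44, 5.13, 0.57 and 3435 TPM, high in scr alone. Slc10a2, the ileal bile acid transporter, was at 9.33, 4.34, 1.25 and 12.5 TPM and overlapped. Scr was thus the highest library for the duodenal Tmprss15 and the ileal Fabp6 alike.

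Most absorptive enterocyte genes lay wholly below. Of 37 kept genes 13 were lower (35 without knockdown 2), none was higher and 33 lay wholly below, and the median was -1.74 (from -2.49 to -0.83 across settings). Of all kept genes 2.33% were lower and 34.3% lay wholly below. Their summed level was 35449, 88160, 150530 and 145930 TPM, and knockdown 2 lay well above knockdown 1. Apoa4, an apolipoprotein of chylomicrons, was at 5780, 11402, 32945 and 35720 TPM, a log2 difference of -2.47 ± 0.63. Ada, adenosine deaminase, was at 304, 607, 2257 and 4505 TPM, a difference of -3.28 ± 0.82. Other genes of this list fell short of a 2-fold gap. Lct, lactase, was at 114, 318, 514 and 570.1 TPM with a gap of 0.92, and Fabp2, the intestinal fatty acid binding protein, at 8196, 22942, 20093 and 22531 TPM with a gap of 0.04.

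Start regions of all kept genes with an entry were searched for the GATA motif, bound by Gata4 and its relatives, because Gata4 and Gata6 were themselves on the lower side without reaching a 2-fold gap. The motif was taken as TGATAA or AGATAA on either strand in the 250 bases before the RefSeq gene start (build GRCm38.p6), and 10897 of the 14363 kept genes matched an entry. It was present in 22.0% of 250 lower genes, in 11.5% of 780 higher genes and in 10.1% of all, and in 9 of 31 genes of the enterocyte list (29.0%). Lists on the higher side held it at shares of the same order. It was in 6 of 18 genes of the interferon-gamma response (33.3%), 3 of 15 of the large bowel and 4 of 21 of the inflamed epithelium (19.0%). The lists are short and the separating genes were chosen from these same data, so nothing is read from these shares. A role of Gata4 or Gata6 was not tested. A match describes the letters and not a bound site. The windows of Slc2a2, Bbox1 and Apoc2 were picked after the search, as genes that separated the pairs and hold the motif, and are given 5′ to 3′ with the motif in capitals.
Slc2a2 (chr3:28697653-28697902, plus strand): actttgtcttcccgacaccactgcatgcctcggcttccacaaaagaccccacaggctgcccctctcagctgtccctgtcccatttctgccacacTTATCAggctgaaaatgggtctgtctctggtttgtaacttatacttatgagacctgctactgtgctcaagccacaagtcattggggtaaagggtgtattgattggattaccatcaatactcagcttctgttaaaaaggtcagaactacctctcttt
Bbox1 (chr2:110305726-110305975, minus strand): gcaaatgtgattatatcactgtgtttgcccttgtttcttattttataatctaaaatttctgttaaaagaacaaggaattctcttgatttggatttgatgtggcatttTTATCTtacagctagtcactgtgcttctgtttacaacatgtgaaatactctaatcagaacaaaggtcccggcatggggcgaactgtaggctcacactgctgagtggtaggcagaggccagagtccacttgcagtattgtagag
Apoc2 (chr7:19677942-19678191, minus strand): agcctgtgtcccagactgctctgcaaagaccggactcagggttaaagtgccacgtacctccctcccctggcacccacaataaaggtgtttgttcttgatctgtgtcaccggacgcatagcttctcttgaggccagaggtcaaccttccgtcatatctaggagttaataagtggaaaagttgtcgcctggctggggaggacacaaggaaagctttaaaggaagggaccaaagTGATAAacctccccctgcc
Each window holds 1 motif, read on the opposite strand in Slc2a2 and Bbox1. Slc2a2, the basolateral glucose and fructose carrier, was at 22.3, 59.2, 155 and 274 TPM, a log2 difference of -2.89 ± 0.94. Bbox1, the last enzyme of carnitine synthesis, was at 4.06, 6.71, 68.5 and 70.8 TPM, a difference of -4.10 ± 0.49. Apoc2, the activator of lipoprotein lipase, was at 758, 1614, 4798 and 4695 TPM, a difference of -2.48 ± 0.68.

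Hormone genes lay on both sides. Insl5, a peptide of colonic L cells, was at 26.7, 9.62, 0 and 0 TPM and at least 45.2-fold higher in knockdown 1 and 2. It passed the count minimum through that pair alone and had to lie above. Pyy, the satiety peptide of the distal gut, was at 46.5, 30.05, 4.83 and 10.7 TPM, a log2 difference of 1.96 ± 0.60. Cck, cholecystokinin of the upper small bowel, was at 12.6, 15.9, 50.9 and 81.5 TPM, a difference of -2.55 ± 0.47. Ghrl, ghrelin, was at 8.78, 17.3, 48.2 and 179 TPM, a difference of -3.26 ± 1.15. Gip and Sct, further hormones of the upper bowel, were lower in both libraries but short of 2-fold, with gaps of 0.97 and 0.90. Over 20 kept enteroendocrine genes 3 were higher and 3 lower (12 lower without knockdown 2 and 10 without knockdown 3), and the median was -1.19.

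Of 19 kept Paneth cell genes 15 overlapped. Lyz1, their lysozyme, was at 1084, 2802, 1358 and 1080.2 TPM, and 1 was higher, Pla2g2a, a secreted phospholipase, at 140.4, 39.3, 6.21 and 0.9 TPM. Without knockdown 1 there were 8 higher and without knockdown 3 there were 7. The median was 0.16 and ran from -0.64 to 1.01 across settings. Defensin genes are near-identical copies, and their counts are uncertain. Among goblet genes 2 of 19 were higher (7 without knockdown 2), and the median was 0.46. For so few genes 2 is near the share of all genes, 7.65%. Muc2, the gel-forming mucin, was at 405, 134, 81.8 and 101 TPM with a gap of 0.12. The stem cell gene Lgr5 was at 0.43, 1.11, 0.82 and 0.9 TPM and overlapped, and the list of stem cell and Wnt target genes, with 6 of 21 higher and 1 lower (5 lower without knockdown 2), had a median of -0.03 (from -0.07 to 0.41). Prom1 stood at 200.3, 91.5, 21.8 and 12.1 TPM on the higher side, and Sp5, a Wnt target, at 2.76, 4.71, 12.7 and 13.7 TPM on the lower. General epithelial genes had a median of -0.10 (from -0.28 to 0.34), with 1 of 20 higher.

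Most genes of injured or fetal-like epithelium lay wholly above in knockdown 1 and 2. Of 24 kept genes 19 did so, 10 were higher (19 without knockdown 3) and none lower, and the median was 1.23. Of all kept genes 38.7% lay wholly above and 7.65% were higher. Ly6a, also known as Sca-1, was at 3233, 1061, 31.9 and 16.3 TPM, a log2 difference of 5.95 ± 0.81. Anxa1, an annexin, was at 693, 316, 22.5 and 13.6 TPM, a difference of 4.35 ± 0.55. Plaur, the urokinase receptor, was at 63.8, 44.7, 7.94 and 3.73 TPM. Both libraries of the higher pair exceeded the others several-fold for each. Anxa2, of the same family as Anxa1, was at 3064, 3069.5, 2638 and 2278 TPM and overlapped on log2 CPM.

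Neutrophil genes had the highest median of the lists over the 4 libraries. The 19 kept genes of the list were higher, at a median of 4.45 (from 2.75 to 4.91 across settings), and 4 of the 23 listed, Mpo, Elane, Camp and Ngp, which encode granule proteins made in bone marrow precursors, were not kept. The summed level was 1514, 1173, 28.5 and 7.89 TPM. Genes near 0 in knockdown 3 and scr could pass the count minimum through knockdown 1 and 2 alone, and such genes had to lie above. Fpr1, which had no count in knockdown 3 and scr, is one of them, so the count of higher genes is partly set by the filter. S100a8, a subunit of calprotectin, was at 442, 438, 6.93 and 0 TPM, a log2 difference of 7.76 ± 2.19. Ly6g, the surface marker of mouse neutrophils, was at 426, 179, 2.38 and 1.04 TPM, a difference of 6.96 ± 0.72. Csf3r, the receptor of granulocyte colony-stimulating factor, was at 4.8, 5.16, 0.2 and 0.12 TPM. Knockdown 1 and 2 were nearly level for S100a8 and Csf3r, and knockdown 1 was the higher for Ly6g.

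Chemokines that draw neutrophils through Cxcr2 were among these higher genes, since they and Cxcr2 are members of the same list. Cxcl5 was at 105, 64.6, 0.54 and 0.15 TPM, a log2 difference of 7.46 ± 0.76. Cxcl1 was at 43.5, 27.05, 0.21 and 0.13 TPM, a difference of 6.51 ± 0.27, and Cxcl2 was at 17.0, 31.3, 0.6 and 0.12 TPM, a difference of 5.49 ± 1.00. Both genes are known targets of NF-kB, so their start regions are shown, with the motif GGGANTTTC, searched on either strand, in capitals. It was present in 5 of 17 neutrophil list genes with an entry, which include Cxcl1 and Cxcl2 themselves. It was in 2.44% of higher genes, in 0.4% of lower genes and in 0.927% of all. Lists with other directions or roles held it too, in 2 of 18 interferon-gamma genes and 1 of 9 duodenal genes. Both windows were picked after the search because they hold the motif.
Cxcl1 (chr5:90890995-90891244, plus strand): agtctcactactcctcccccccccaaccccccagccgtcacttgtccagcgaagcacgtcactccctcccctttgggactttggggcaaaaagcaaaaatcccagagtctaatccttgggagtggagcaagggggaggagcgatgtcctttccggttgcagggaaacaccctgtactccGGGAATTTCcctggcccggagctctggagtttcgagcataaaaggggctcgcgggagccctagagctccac
Cxcl2 (chr5:90903649-90903898, plus strand): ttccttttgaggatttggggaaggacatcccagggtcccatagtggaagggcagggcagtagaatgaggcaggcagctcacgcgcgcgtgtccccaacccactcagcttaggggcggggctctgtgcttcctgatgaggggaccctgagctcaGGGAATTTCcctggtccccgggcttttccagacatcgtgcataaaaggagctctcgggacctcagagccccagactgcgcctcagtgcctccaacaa
The capitals spell the same 9 letters in both windows, which belong to neighbouring genes on chromosome 5. As above, the match is a description of the sequence. The receptor Cxcr2 was itself at 4.04, 3.93, 0.66 and 0.46 TPM, a difference of 2.39 ± 0.25.

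Inflamed and antimicrobial epithelium and its cytokines followed, with 16 of 26 kept genes higher, none lower and a median of 3.26 (from 1.68 to 3.57 across settings). S100a8 and S100a9 are among the higher genes and stand in the neutrophil list too, so the lists are not separate. Saa1, an acute-phase protein, was at 1809.8, 1168, 5.41 and 0.55 TPM, a log2 difference of 9.08 ± 1.44, though Saa1 and Saa2 are close copies that can share reads. Nos2, inducible nitric oxide synthase, was at 126, 97.4, 2.49 and 5.81 TPM, a difference of 4.49 ± 0.61. Duox2, an epithelial peroxide source, was at 66.8, 45.8, 6.14 and 7.74 TPM. Il1b, a cytokine of myeloid cells, was at 88.1, 86.5, 2.86 and 1.69 TPM, a difference of 4.87 ± 0.36, and Tnf was at 17.96, 15.98, 0.95 and 0.15 TPM. Reg3b, an antibacterial lectin, was at 35165, 14782, 10755 and 2577 TPM, high in all and with a gap of 0.23.

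Interferon lists went apart from each other. Of 30 kept genes of the interferon-gamma response 18 were higher and none lower, and the median was 1.88 (from 1.55 to 2.32). Iigp1, an immunity-related GTPase, was at 153, 49.8, 1.98 and 2.64 TPM, a log2 difference of 4.84 ± 0.71, and Gbp2, a guanylate-binding protein, at 162, 101, 6.51 and 7.08 TPM, a difference of 3.84 ± 0.23. Cxcl9 was at 55.6, 23.9, 3.02 and 3.13 TPM. In the type I interferon list 1 of 26 kept genes was higher, none was lower and the median was -0.92 (from -1.16 to -0.37), with 18 genes wholly below. Without scr 9 were lower, and without knockdown 2 there were 11. Of all kept genes 34.3% lay wholly below. Isg15, a ubiquitin-like protein, was at 88.4, 104, 205 and 131 TPM with a gap of 0.61, and Ifit1 at 36.6, 43.5, 100.4 and 59.1 TPM with a gap of 0.72. Knockdown 3 was the highest library for both. The exception was Ifit2 at 79.5, 50.8, 2.65 and 1.86 TPM, a difference of 4.43 ± 0.30.

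Many genes of antibody-producing cells were higher. Of 14 kept plasma cell genes 9 were higher, and the median was 2.58. Jchain, which joins IgA dimers, was at 8248, 2771, 801 and 257 TPM, a log2 difference of 3.01 ± 1.03. Mzb1, a chaperone of plasma cells, was at 250.3, 126, 21.8 and 9.22 TPM, a difference of 3.25 ± 0.69. Pigr, the epithelial receptor that carries IgA into the lumen, went the other way, at 1208, 852, 1309 and 1492 TPM with a gap of 0.61. Cd79a, of the B cell receptor, was at 90.6, 35.8, 6.73 and 3.95 TPM. In the B cell list 4 of 15 kept genes were higher, with 13 when scr was left out. The median over 4 libraries was 1.27 and without scr 1.82.

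T cell genes lay on both sides. Il2ra, the high-affinity interleukin 2 receptor, was at 3.05, 1.53, 0.14 and 0.09 TPM, a log2 difference of 3.61 ± 0.42, and Foxp3, the factor of regulatory T cells, was at 1.72, 0.88, 0.1 and 0.1 TPM, a difference of 2.96 ± 0.34. Il17a was at 3.27, 2.87, 0 and 0 TPM and at least 14.4-fold higher. In contrast, among genes of intraepithelial and cytotoxic cells 6 of 21 kept were lower (11 without knockdown 2), 1 was higher, 16 lay wholly below and the median was -1.30. Of all kept genes 2.33% were lower and 34.3% lay wholly below. Gzma, a granzyme, was at 18.9, 27.7, 98.2 and 193 TPM, a difference of -2.96 ± 0.65, and Gzmb at 13.3, 14.8, 47.6 and 57.4 TPM, a difference of -2.28 ± 0.26. Cd8a was at 2.98, 5.15, 13.9 and 10.5 TPM, a difference of -1.996 ± 0.551. The higher one was Klrk1, an activating receptor, at 1.9, 0.85, 0.17 and 0.19 TPM. In the T cell list 7 of 18 kept genes were higher and none lower, 6 lay wholly below and the median was 0.82 (0.45 without scr). Cd3e, a chain of the T cell receptor complex, lay the other way at 4.59, 3.75, 6.59 and 6.79 TPM, a difference of -1.06 ± 0.05 with a gap of 0.996, just short of 2-fold.

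Many myeloid and mast cell genes were higher. Of 23 macrophage and monocyte genes 11 were higher (19 without knockdown 2), and the median was 1.34. Cd14, the lipopolysaccharide co-receptor, was at 159.6, 78.5, 10.2 and 4.91 TPM, a log2 difference of 3.58 ± 0.63. Ccr2, which brings monocytes into tissue, was at 8.31, 3.21, 0.49 and 0.31 TPM. Lyz2, myeloid lysozyme, was at 822, 633, 132 and 137 TPM, a difference of 2.04 ± 0.08 with both pairs tight. Tpsb2 and Tpsab1, mast cell tryptases that are close copies, were at 13.5, 2.82, 0.12 and 0.17 TPM and at 17.0, 3.03, 0.22 and 0.06 TPM, and 7 of 13 mast cell and eosinophil genes were higher (12 without knockdown 3). Of 11 class II genes 5 were higher (9 without knockdown 2 or 3), among them Cd74, the invariant chain, at 2739.8, 1494, 570 and 246 TPM.

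Collagen and fibroblast genes held many higher genes and the smooth muscle list none. Of 30 kept fibroblast genes 15 were higher (24 without knockdown 2) and none lower, and the median was 1.56 (from 1.20 to 2.00). Col1a1, the main fibrillar collagen chain, was at 25.2, 10.1, 2.56 and 2.85 TPM, a log2 difference of 2.17 ± 0.54. Postn, periostin, was at 73.8, 17.2, 2.97 and 4.64 TPM, a difference of 2.86 ± 0.98. Mmp3, stromelysin, was at 16.3, 5.83, 0.49 and 0.1 TPM, a difference of 4.66 ± 1.06. Knockdown 3 and scr were close together for Col1a1. Fbln1, a fibulin of elastic matrix, lay the other way at 43.5, 71.7, 83.5 and 93.4 TPM, with a gap of 0.45. Of 23 smooth muscle genes none reached the gap (4 lower without knockdown 2), near the share of all genes for so few. Their median was 0.02 (from -0.39 to 0.53). Acta2, smooth muscle actin, was at 132, 76.4, 47.8 and 90.1 TPM, and Myh11, its myosin, at 40.3, 27.6, 17.6 and 36.9 TPM. On log2 CPM the pairs overlapped for both. Of 21 endothelial genes 2 were higher (median 0.89), and of 19 basement membrane genes 1 (median 1.13), with 10 and 12 without knockdown 2. Over the 4 libraries both counts are near the share of all genes, 7.65%.

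**Figure D5:**
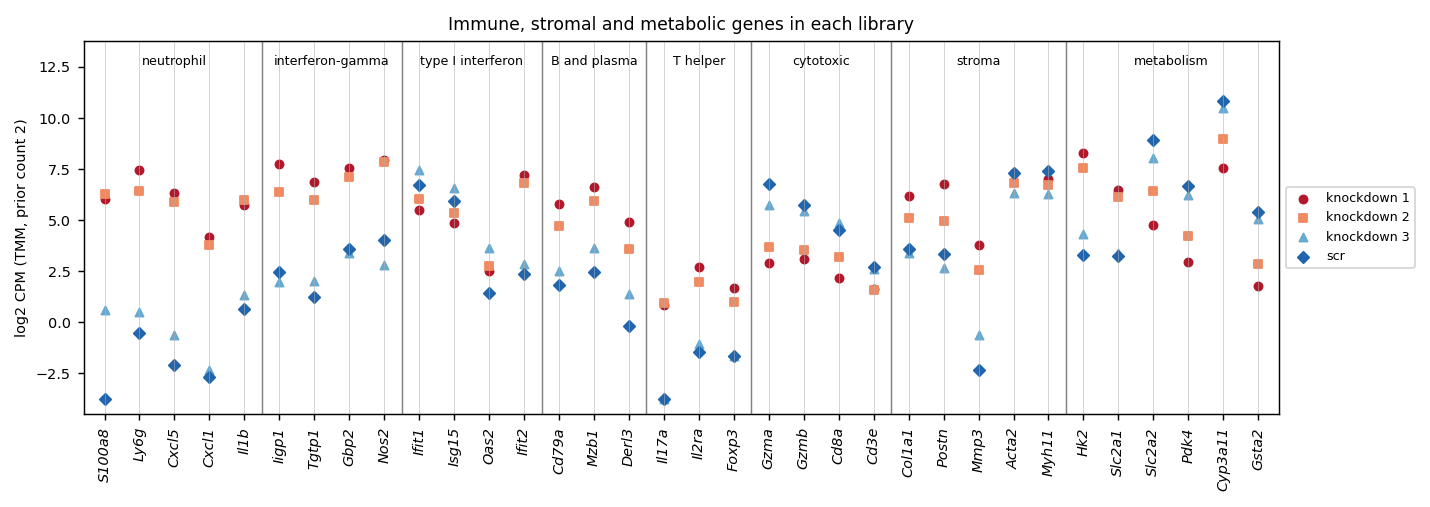
Log2 CPM (trimmed-mean scaling, prior count 2) of immune, stromal and metabolic genes in each of the 4 libraries, 1 symbol per library. Knockdown 1 and 2 lie above both others for S100a8, Ly6g, Iigp1, Gbp2, Nos2, Mzb1, Postn and Hk2, and below for Gzma, Gzmb, Pdk4, Cyp3a11 and Gsta2, and the pairs overlap for Acta2, Myh11 and Oas2.

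Most genes of sugar uptake and use lay wholly below, with a few isoforms on the other side. Of 20 kept sugar genes 17 did so, 6 were lower (19 without knockdown 2 and 15 without knockdown 3) and 1 higher, and the median was -1.90 (from -2.72 to -1.12). Slc2a2 is among the 6 and is also counted in the enterocyte list. Of all kept genes 34.3% lay wholly below and 2.33% were lower. Slc2a5, the fructose carrier, was at 13.4, 35.6, 75.0 and 167 TPM, a log2 difference of -2.74 ± 1.03. Slc2a1, the glucose carrier of most growing cells, went the other way at 74.4, 48.2, 6.01 and 5.38 TPM, a difference of 3.00 ± 0.19. Hk2, a hexokinase of growing and tumour cells, was at 117, 58.3, 5.39 and 2.48 TPM, a difference of 4.10 ± 0.65. Hk1 and Hk2 were the 2 higher of 21 glycolysis genes, and Aldoc, an aldolase isoform, the only lower one at 7.15, 6.01, 10.4 and 24.6 TPM. For so few genes both counts are near the shares of all genes, 7.65% and 2.33%. The median of that list was -0.56 (from -0.69 to -0.12).

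Most genes of fat handling lay wholly below, and a minority passed the 2-fold gap. Of 23 chylomicron genes 21 lay wholly below, 5 were lower (20 without knockdown 2) and none was higher, and the median was -1.44. Apoc2, Apoa4, Fabp1 and Dgat2 are among the 5 and are also counted in the enterocyte list. Of 32 genes of fatty acid oxidation 27 lay wholly below, 7 were lower (18 without knockdown 2) and none was higher, and the median was -0.91. Both lists stand beside 34.3% of all kept genes wholly below and 2.33% lower. Pdk4, which diverts pyruvate from oxidation, was at 4.64, 9.37, 31.9 and 43.1 TPM, a log2 difference of -2.87 ± 0.68. Cyp4a10, a fatty acid hydroxylase driven by PPAR-alpha, was at 0.74, 1.85, 6.27 and 12.2 TPM, a difference of -3.20 ± 0.90. None of 24 cholesterol synthesis genes reached the gap in either direction, which for so few genes is near the share of all genes. Their median was 0.22 (from -0.08 to 0.66).

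Most genes of xenobiotic metabolism lay wholly below. Among 23 cytochrome P450 genes 16 did so, 7 were lower and 1 was higher (median -1.53). Among 33 genes of conjugation 23 did so, 8 were lower and none was higher (median -1.27). Both lists stand beside 34.3% of all kept genes wholly below and 2.33% lower. Without knockdown 2 the lower genes numbered 19 and 20. Cyp3a11, the main drug-oxidising enzyme of mouse gut and liver, was at 199, 442, 1082 and 1324 TPM, a log2 difference of -2.40 ± 0.73. Gsta2, a glutathione transferase, was at 8.88, 15.8, 64.2 and 76.8 TPM, a difference of -2.93 ± 0.56. Cyp2d34 was the higher one at 61.9, 29.2, 0.43 and 0.38 TPM, a difference of 6.12 ± 0.41. In retinoid metabolism 3 of 24 genes were lower (11 without knockdown 2), all alcohol dehydrogenases, among them Adh4 at 4.42, 10.8, 61.7 and 129 TPM, and 3 were higher, among them Stra6 and Dhrs9.

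Respiratory chain genes lay on the lower side, and ribosomal and cell cycle genes on the higher. None of 37 complex I genes reached a 2-fold gap, yet 35 lay wholly below, and the median was -0.39. That direction turned with library size alone, where the median was 0.06 beside 0.48 for all genes. For complexes II to V 38 of 40 lay wholly below, and the median was -0.51. Among ribosomal protein genes 50 of 52 lay wholly above, none was past 2-fold and the median was 0.59. Of all kept genes 34.3% lay wholly below and 38.7% wholly above. In the cell cycle list 44 of 50 lay wholly above, and the median was 1.08. Of the 50, 3 were past 2-fold, all cyclins, which is near the share of all genes, 7.65%. There were 32 without knockdown 2 and 22 without knockdown 3. Mki67, the proliferation marker, was at 27.0, 13.9, 6.78 and 5.64 TPM with a gap of 0.81, and Ccnd1, cyclin D1, was at 112, 42.2, 11.96 and 5.19 TPM, a log2 difference of 2.73 ± 0.81. Among 26 kept genes of PP2A subunits and modulators none separated the pairs, near the share of all genes for so few. Their median was -0.18 (from -0.22 to 0.26), and without knockdown 2 there were 4 lower and 2 higher.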

How the data were processed

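RNA of 4 libraries was sequenced by the authors from tumours labelled shppp2r1a (3 libraries) and scr (1 library). The authors deposited 1 table with expected counts (estimated counts from the authors' counter), TPM and FPKM per gene and library. Columns of the authors' own comparison were not used: these deposited values are a ratio (fold) between the labelled groups and a fraction, the posterior probability of no change. Bowtie 0.12.2 and the builds mm8 and mm10 are listed, with no roles, in the submitters' processing notes. Counter, annotation and strand setting were not given in the sources used here, so antisense genes and close copies (Saa1 and Saa2, tryptases, defensins, Ugt1a) are uncertain. Columns were matched to libraries by their descriptions, and 0 columns of per-sample values were left unmatched. A fold below is a ratio of counts computed here from the deposited table.

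Genes were kept when at least 2 libraries reached the CPM of 10 counts in the smallest library, leaving 14363 of 24444. Factors of edgeR 4.0.16 (trimmed mean of M values, R 4.3.3) were 1.29, 1.06, 0.870 and 0.845 for knockdown 1, 2, 3 and scr, and log2 CPM used a prior count of 2. The difference is the mean of knockdown 1 and 2 minus the mean of knockdown 3 and scr. Its standard error comes from the spread within each pair, with 2 libraries each. The gap is the lowest library of the higher pair minus the highest of the other. Because the pairing was chosen from these values, no test was made. A count of 0 in both libraries of a pair was set to a floor of 3 counts per library. Intervals for 1 to 3 counts are exact binomial at 95% and cover counting error only. The members, gene lists and rules were chosen with earlier results of these data known. Named genes were Ppp2r1a, the 12 largest gaps in each direction with a mean of at least 10 TPM in the higher pair, up to 4 separating genes per list and direction and the largest exception to a list's direction, and set marker genes, with unnamed transcripts and receptor segments left out. Members of the lists outside this rule, shown for contrast, were picked after their values were seen. Of 60 lists, the one of the mitochondrial genome had no gene in the table used, and 82 genes stood in more than 1 list. Older symbols were matched for 5 genes. The gap rule was tested on simulated data. In start regions the GATA and NF-kB motifs were searched over 6 lists, and the windows printed were picked after the search. A further motif searched, and some genes that the rule above names, are not reported here. Alternatives were other scalings, filters, prior counts, units, limits of the gap and each library left out. Python 3.11.15, pandas 2.3.3, numpy 2.4.6, scipy 1.17.1 and matplotlib 3.10.9 were used.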

Additional observations from a re-analysis of the deposited data

How the results depend on the processing

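The 1099 higher and 335 lower genes depended on the limit set, on scaling and on knockdown 2. With library size alone they became 1722 and 180, on log2(TPM + 1) 766 and 127, and on log2(FPKM + 1) 632 and 104. Without a minimum gap they were 5560 and 4928, and with a 4-fold gap 345 and 48. Leaving out 1 library can only widen the gap, so those counts can only rise: they ran from 1146 to 2469 higher and from 375 to 1809 lower. Without knockdown 2 there were 2469 and 1809, and without knockdown 3 there were 1849 and 781. Other factors, filters and prior counts kept both counts within 1.5-fold. Genes 2-fold apart on log2(TPM + 1) were 1115 for knockdown 1 and 2, 1127 for knockdown 2 and 3, 1793 for knockdown 2 and scr and 396 for knockdown 3 and scr. Of the list medians with an absolute value of at least 1, only that of the stomach and Brunner gland list changed sign. This list has 5 kept genes, and its median went from 2.34 to -1.78 without scr and was 6.13 without knockdown 3. Several smaller medians also changed sign across settings, among them those of Paneth cell (from -0.64 to 1.01) and smooth muscle genes (from -0.39 to 0.53). Among named genes that separated the pairs, none had a difference that changed sign. Named genes short of the 2-fold gap were not checked for this. No paired analysis was possible because the pairs, numbered 1 and 2 against 3, share no number, and scr is a single library.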

Other observations

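Of the separating genes, 1181 stood in none of the lists. Among those with the largest gaps, Lpo, a lactoperoxidase of secretory epithelia, was at 21.2, 9.72, 0.04 and 0.02 TPM in knockdown 1, 2, 3 and scr, a ratio of 375 to the 3 counts of the lower pair (95% counting interval from 128 to 1819). Wfdc18, a secreted protein of the whey acidic family, was at 317, 100.2, 1.19 and 0 TPM, a log2 difference of 7.92 ± 1.48 (SE from the spread within pairs, n = 2 per pair). On the lower side Otop3, an otopetrin proton channel, was at 0.36, 0.65, 18.5 and 67.8 TPM, a difference of -6.40 ± 1.08. Slc19a3, a thiamine transporter, was at 0.67, 1.2, 8.81 and 19.5 TPM, a difference of -4.18 ± 0.79. Arsg, a sulfatase, was at 4.2, 6.99, 38.0 and 33.4 TPM, a difference of -2.93 ± 0.39, with knockdown 3 and scr close together.

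Some genes were far lower in scr than in the other 3 libraries. These were picked after their values were seen. Defa2 was at 1313, 4208, 1108 and 0 TPM, and Defa21 at 690.5, 2604, 615 and 0 TPM. Both are alpha-defensins with near-identical copies. H2-Eb1, a class II chain, was at 298, 165, 73.4 and 2.37 TPM, and its pairs did not overlap, with a gap of 0.94. Gkn1, a gastric secreted protein, was at 20.1, 25.4, 48.1 and 0.15 TPM. Eif2s3y, on the Y chromosome, was at 54.4, 50.3, 53.4 and 59.5 TPM, and Xist, of the inactive X chromosome, had 1, 3, 0 and 3 counts, so neither separated the pairs.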
